A study of Mus musculus with 8 samples.

Results

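The 10 genes described here encode parts of the anaphase-promoting complex or cyclosome (APC/C) and the proteins that switch it on, hold it back or supply it with ubiquitin. They were taken as a named list of 10 among 21887 protein-coding genes of the autosomes, X and Y, and all 10 matched the gene table. The list divides into 5 regulators (Cdc20, Fzr1, Fbxo5, Ube2c and Ube2s) and 5 core subunits (Anapc1, Anapc11, Cdc16, Cdc23 and Cdc27). For each gene, every called peak inside the gene or within 1 kb of its start or end was collected from 6 peak lists, and the regulators were set beside the core subunits.

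The peaks come from chromatin immunoprecipitation sequencing in C2C12 cells, mouse myoblasts kept as a line, which stop dividing and fuse into myotubes in low serum. A polyclonal rabbit antibody against APOBEC2, a muscle-enriched member of the AID/APOBEC deaminase family, was used in 3 immunoprecipitated (IP) libraries at 34 h and 3 at 14 h after a change to medium with 2% horse serum. Each time also had 1 input library, made without antibody, which has no peak list here. Sample titles and characteristics give 34 and 14 h, but the growth protocol names harvests at 34 and 24 h, so the earlier time is uncertain. All 6 list names carry the tag GFPsh, which the labels do not explain. No library from cells lacking APOBEC2 or made with a control antibody was used here, and peak lists give no expression by which the identity of the cells could be checked. The labels do not state that replicates were separate cultures, so the spread between libraries may be technical.

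The APC/C is a ubiquitin ligase that marks mitotic proteins for destruction by the proteasome. It is inactive toward most substrates until an activator, Cdc20 in mitosis or Cdh1 (encoded by Fzr1) in late mitosis and G1, brings substrates to it. Emi1, encoded by Fbxo5, inhibits the complex from S phase until early mitosis. The E2 enzyme Ube2c starts ubiquitin chains on substrates, and Ube2s lengthens them. The core holds a catalytic module with the RING subunit Anapc11, a large scaffold subunit Anapc1, and an arc of tetratricopeptide repeat subunits that includes Cdc16, Cdc23 and Cdc27. Cells that leave the cycle to form muscle keep Cdh1-bound APC/C active, whereas mitotic regulators are made chiefly in dividing cells.

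The promoters of the called genes are shown, except that of Cdc23, for which no promoter sequence was available. They are given because 4 regulators with peaks carry a sequence known from cell cycle promoters. Many genes that peak in G2 and mitosis have a cell cycle genes homology region (CHR), TTTGAA or less often TTCGAA, near the start, usually with CCAAT boxes upstream. Each window runs from 250 bases before to 50 bases after a RefSeq gene start (GRCm38.p6, the assembly of mm10), read on the gene's own strand. Capitals mark the CHR, its variant and the CCAAT box on either strand.
Ube2c, chr2:164769679-164769978, plus strand: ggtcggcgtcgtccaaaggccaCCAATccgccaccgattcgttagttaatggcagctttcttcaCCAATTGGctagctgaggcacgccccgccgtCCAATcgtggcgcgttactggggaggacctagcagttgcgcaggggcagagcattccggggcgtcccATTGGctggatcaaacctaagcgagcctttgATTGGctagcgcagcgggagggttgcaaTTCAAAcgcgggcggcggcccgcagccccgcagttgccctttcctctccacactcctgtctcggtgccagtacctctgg
Fbxo5, chr10:5805416-5805715, minus strand: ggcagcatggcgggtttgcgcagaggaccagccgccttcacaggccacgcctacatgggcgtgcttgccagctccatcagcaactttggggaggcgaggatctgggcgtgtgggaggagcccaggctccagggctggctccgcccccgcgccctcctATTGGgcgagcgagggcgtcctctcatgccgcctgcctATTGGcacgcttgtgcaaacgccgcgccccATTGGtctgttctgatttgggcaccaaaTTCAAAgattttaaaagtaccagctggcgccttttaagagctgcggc
Cdc20, chr4:118437294-118437593, minus strand: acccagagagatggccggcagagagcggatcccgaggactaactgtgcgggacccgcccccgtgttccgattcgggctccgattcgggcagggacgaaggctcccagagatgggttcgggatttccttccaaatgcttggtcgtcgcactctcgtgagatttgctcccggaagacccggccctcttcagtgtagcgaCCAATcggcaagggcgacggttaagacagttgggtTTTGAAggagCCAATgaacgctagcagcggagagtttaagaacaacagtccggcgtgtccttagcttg
Ube2s, chr7:4812291-4812590, minus strand: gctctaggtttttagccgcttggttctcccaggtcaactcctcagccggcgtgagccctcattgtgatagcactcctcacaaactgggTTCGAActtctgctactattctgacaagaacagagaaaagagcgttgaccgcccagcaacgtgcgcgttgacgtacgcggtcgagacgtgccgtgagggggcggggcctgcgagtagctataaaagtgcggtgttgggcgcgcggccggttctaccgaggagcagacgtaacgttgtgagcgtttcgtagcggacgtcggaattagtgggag
Anapc11, chr11:120598282-120598581, plus strand, around the downstream of its 2 listed starts: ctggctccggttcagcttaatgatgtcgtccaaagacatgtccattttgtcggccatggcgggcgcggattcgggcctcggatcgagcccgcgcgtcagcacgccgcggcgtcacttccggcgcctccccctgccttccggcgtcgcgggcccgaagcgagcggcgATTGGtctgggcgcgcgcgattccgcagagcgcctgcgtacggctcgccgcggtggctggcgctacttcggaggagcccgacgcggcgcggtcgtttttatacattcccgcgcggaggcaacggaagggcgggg

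TTTGAA lay in 3 of these windows. It began 29 bases before the start of Ube2c, 18 bases before that of Cdc20 and 3 bases after that of Fbxo5. Ube2s had TTCGAA beginning 162 bases before its start. Of the 9 members with a promoter window, the fifth regulator, Fzr1, and the core subunits Anapc1, Anapc11, Cdc16 and Cdc27 had neither motif. Among 21263 windows of protein-coding genes, 16.0% held TTTGAA and 1.85% held TTCGAA on either strand. In windows of genes with a peak region of at least 2 libraries the shares were 17.2% and 3.58% at 34 h, and 23.3% and 4.55% at 14 h. Either motif lay in 17.6% of all windows, and in 20.5% and 27.1% of those of genes with a region at 34 h and 14 h.

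CCAAT occurred 6 times in the Ube2c window, 3 times in that of Fbxo5 and 2 times in that of Cdc20. The window of Cdc27 had 2 copies, those of Fzr1 and Anapc11 had 1 each, and Ube2s, Anapc1 and Cdc16 had 0, where 38.2% of all windows held it. Of the windows of genes with a region, 51.6% held CCAAT at 34 h and 49.7% at 14 h. In Ube2c, 2 of the copies lay on opposite strands and overlapped by 2 bases. GGGCGG, the GC box, lay in all 5 regulator windows and in Anapc11, against 46.2% of all windows. Among windows of genes with a region it was more common, at 64.8% at 34 h and 67.2% at 14 h. The E2F-type sequences TTCGCGC and TTGGCGC were in none of the 9 members' windows and in 2.11% and 3.09% of all windows. For genes with a region these shares were 5.05% and 6.62% at 34 h, and 9.30% and 8.25% at 14 h. CANNTG, the general E-box, was found in Cdc20, Fbxo5, Ube2c and Anapc1 and in 69.0% of all windows. Its form CAGCTG, counted within it, was found in Fbxo5 and Anapc1 and in 15.6% of all windows. Windows of genes with a region held CANNTG in 59.2% at 34 h and 55.5% at 14 h, and CAGCTG in 14.6% and 13.4%. A matching sequence is a description of these windows and not evidence of a bound factor.

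Peaks numbered 2209, 5025 and 1068 in the lists of 34 h, against 768, 1327 and 797 in those of 14 h. Read totals are not in the lists. The peak caller's fold and p-value together gave the number of DNA fragments stacked at each summit, with a median of 19 to 24 per library and a lowest value of 10 or 11. A gene was said to have a region at a time when peaks of at least 2 of its 3 libraries overlapped there.

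At least 2 libraries shared a region at 5 of the 10 genes at 34 h and at 6 of 10 at 14 h. Of all protein-coding genes, 8.79% had such a region at 34 h and 4.27% at 14 h. Of the regulators, 3 of 5 had a region at 34 h (Fbxo5, Ube2c and Ube2s) and 4 of 5 at 14 h (the same 3 and Cdc20). Of the core subunits, Anapc11 and Cdc23 had a region at both times, and Anapc1, Cdc16 and Cdc27 at neither. A single region with a peak of all 6 libraries was found at 4 genes, Fbxo5, Ube2c, Ube2s and Anapc11, where 2.26% of all genes had such a region. A region of all 3 libraries of a time was found at 4 members at 34 h and 5 at 14 h, where 3.92% and 2.94% of all genes had one. Cdc20 was the 1 member with a region at 14 h only, as were 0.781% of all genes, and 0 members had one at 34 h only, against 5.3% of all genes. In single libraries, 4, 7 and 5 members had a peak at 34 h, beside 9.24%, 18.1% and 4.7% of all genes. At 14 h the counts were 6, 6 and 5 members, beside 3.72%, 6.5% and 3.97% of all genes. With 5 genes on each side the difference between regulators and core subunits was not tested. Only 36 peaks touched the 10 genes, 24 of them at regulators and 12 at core subunits.

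**Figure D1:**
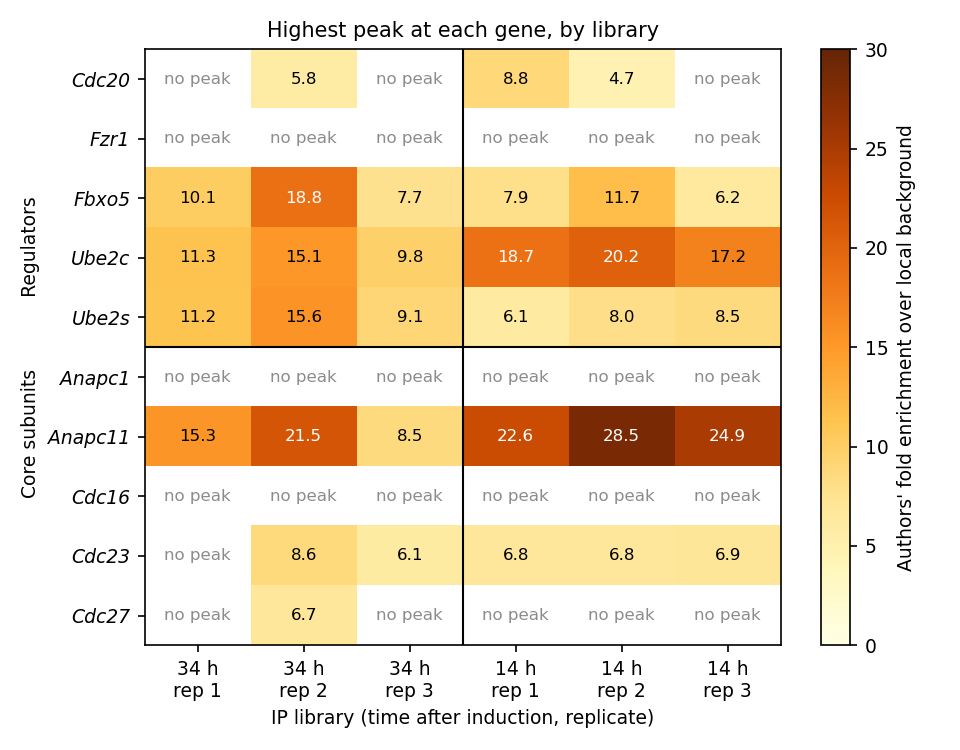
The authors' fold enrichment over local background (colour and printed value) of the highest peak at each of the 10 genes (rows) in each IP library (columns, 34 h left and 14 h right). Fbxo5, Ube2c, Ube2s and Anapc11 have a peak in every column, and Fzr1, Anapc1 and Cdc16 in none.

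Cdc20, the mitotic activator (gene on chromosome 4, 118432901 to 118437343), was called in 1 library of 34 h and 2 libraries of 14 h. The fold was 5.77 in replicate 2 at 34 h, against 8.83 and 4.74 in replicates 1 and 2 at 14 h, each on 18 to 31 fragments. Fold here is the authors' value, IP signal over local background at the summit. Summits lay between 37 bases upstream and 19 bases downstream of the gene start, around the TTTGAA of that promoter. The 2 folds of 14 h stood at the 56.5th and 8.42nd percentile of their own lists, so the peak of replicate 2 ranked low. Leaving out either of these libraries, limiting the lists to equal length, or asking for all 3 libraries removed the Cdc20 region of 14 h.

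Fzr1, which encodes the activator Cdh1 (chromosome 10, 81366879 to 81378370), had no peak in any library. The nearest peaks in the 6 lists lay 16257 to 193391 bases from the gene. Absence from a list means only that no stack of fragments passed the peak caller, whose lowest called summits held 10 or 11 fragments.

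Fbxo5, the gene of the inhibitor Emi1 (chromosome 10, 5799158 to 5805465), had a peak in 6 of 6 libraries. The fold was 10.1, 18.8 and 7.73 at 34 h, against 7.94, 11.7 and 6.22 at 14 h, with means of 12.2 ± 5.80 and 8.63 ± 2.81 (SD, n = 3 each). The values of the 2 times overlapped, and replicate 2, which had the most peaks at each time, was highest at each time. The highest summits fell between 34 bases upstream and 46 bases downstream of the start. A second, separate peak 561 and 604 bases upstream was called in replicates 1 and 2 at 34 h (fold 5.48 and 7.10), and 652 bases upstream in replicate 1 at 14 h (fold 6.35). In replicate 2 of 14 h a single peak of 718 bases reached from the start into that stretch.

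Ube2c, the chain-initiating E2 (chromosome 2, 164769929 to 164772902), is the shortest of the 10 genes, at 2974 bases. It had a peak in 6 of 6 libraries. The fold was 11.3, 15.1 and 9.80 at 34 h, against 18.7, 20.2 and 17.2 at 14 h, with means of 12.1 ± 2.75 and 18.7 ± 1.52 (SD, n = 3 each). All 14 h folds were above all 34 h folds, but folds of separately called lists are not on an equal scale: the median fold over a list was 5.72 to 6.04 at 34 h and 8.00 to 8.48 at 14 h. The summits stood on 33 to 54 fragments at 34 h and 39 to 48 at 14 h. They lay within 42 bases of each other, 24 to 66 bases upstream of the start, around the TTTGAA shown above.

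Ube2s, the chain-elongating E2 (chromosome 7, 4808014 to 4812340), also had a peak in 6 of 6 libraries. The fold was 11.2, 15.6 and 9.11 at 34 h, against 6.10, 7.99 and 8.48 at 14 h, with means of 11.9 ± 3.30 and 7.53 ± 1.26 (SD, n = 3 each). All 34 h folds were above all 14 h folds, the reverse of the folds of Ube2c. Here too the folds of separately called lists are not on an equal scale, and ranks are given below. The summits of Ube2s were also placed differently from the other regulators, 301 to 342 bases upstream of the start. They lay outside the printed window, whose TTCGAA lay nearer the gene. The closest summits to the start were those of 34 h, at 301, 315 and 320 bases, against 341, 336 and 342 bases at 14 h. Peaks were 540, 687 and 278 bases wide at 34 h, against 149, 361 and 191 bases at 14 h.

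**Figure D2:**
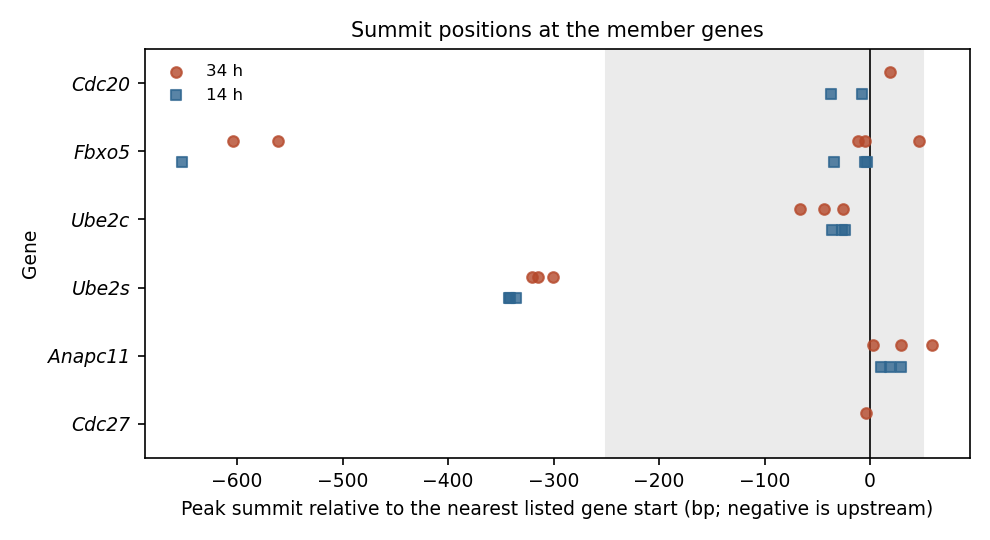
Distance in bases from the nearest listed start (x axis, negative upstream) to every peak summit at the 6 genes with a peak and a listed start, with 34 h as circles above 14 h as squares; the grey band is the promoter window of 250 bases before to 50 after. Summits of Cdc20, Ube2c, Anapc11 and Cdc27 sit within 66 bases of the start, those of Ube2s 301 to 342 bases upstream, and Fbxo5 has a second set 561 to 652 bases upstream.

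Anapc11, the catalytic RING subunit (chromosome 11, 120598421 to 120608198), had the highest fold of the 10 genes in 5 of 6 libraries. The fold was 15.3, 21.5 and 8.54 at 34 h, against 22.6, 28.5 and 24.9 at 14 h, with means of 15.1 ± 6.47 and 25.4 ± 2.99 (SD, n = 3 each). Replicate 3 of 34 h was the lowest, and there Ube2c and Ube2s had higher folds. Summits lay 3 to 59 bases downstream of the second listed start. The region (120598192 to 120598767) also covered the start of Alyref, an mRNA export factor gene on the opposite strand, 167 bases from that second start of Anapc11. The median summit was 24 bases downstream of the second Anapc11 start and 191 bases upstream of the Alyref start, and the peak cannot be assigned to either gene alone.

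Cdc23, a tetratricopeptide repeat subunit (chromosome 18, 34628348 to 34651749), was called in replicates 2 and 3 of 34 h and in all 3 libraries of 14 h. The fold was 8.59 and 6.05 in replicates 2 and 3 at 34 h, against 6.76, 6.78 and 6.88 at 14 h. The 14 h values were almost equal but rested on 14 or 15 fragments each. Summits were 113 to 137 bases outside the upper gene boundary. At 34 h the region was lost without replicate 2 or without replicate 3, which left Anapc11 as the only core subunit called among these 5.

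Cdc27, another repeat subunit (chromosome 11, 104502524 to 104550620), had a single peak, in replicate 2 of 34 h (fold 6.65 on 26 fragments). Its summit lay 4 bases upstream of the Cdc27 start and 39 bases upstream of a start of Myl4, a myosin light chain gene on the opposite strand. Anapc1, the scaffold subunit (chromosome 2, 128610083 to 128687406), and Cdc16 (chromosome 8, 13757649 to 13781951) had no peak in any library. At 77324 bases Anapc1 is the longest of the 10 genes; the median length was 4443 bases for the regulators and 24303 bases for the core subunits. Peaks of 6 of 6 libraries lay 3413 to 3497 bases beyond the upper boundary of Cdc16, with folds of 12.3 to 17.2 at 34 h and 24.1 to 33.6 at 14 h, at the neighbouring gene Upf3a. These counted for Cdc16 only when the window was widened to 5 kb.

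None of the 36 peaks lay deeper than 1 kb inside a gene, and the farthest summit was 652 bases from a boundary. Of the 31 peaks at genes with a listed start, 22 had their summit within 300 bases of it. The others were those of Ube2s and the second, upstream peaks of Fbxo5. Each called peak was counted separately, also where a library had more than 1 peak in a region. Over all peaks of a list, 43.2 to 55.1% at 34 h and 60.4 to 61.8% at 14 h lay within 300 bases of a protein-coding start. These shares include peaks far from genes and use the nearest start of any gene. The member peaks were collected for lying in or near a gene and were measured to its own start, so the measures are unlike.

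The comparison of 34 h with 14 h asked whether the signal at these genes shifted as differentiation went on. Folds were therefore ranked within each library among 428 regions that had a peak in all 6, so that every library ranked an equal set. Fbxo5 stood at the 53.4th, 83.8th and 50.8th percentile at 34 h, against the 24.8th, 25.1st and 10.3rd at 14 h, a difference of 42.6 points. Ube2s stood at the 64.4th, 71.7th and 66.2nd percentile at 34 h, against the 11.6th, 11.2th and 25.1st at 14 h, a difference of 51.4 points. The times did not overlap for either gene (exact two-sided permutation p = 0.1, adjusted over 4 genes 0.2), and 0.1 is the smallest p that 3 against 3 libraries allow. The test treats the 3 folds of a time as independent, although they were called against a single input. Among all 428 regions, 14.7% were higher at 34 h without overlap and 17.5% lower.

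The ranks of Ube2c and Anapc11 overlapped between the times. Ube2c had a mean percentile of 68.9 ± 3.49 in the 3 libraries of 34 h and 72.5 ± 11.1 in the 3 of 14 h (SD; exact permutation p = 0.7). Anapc11 averaged 78.0 ± 15.4 at 34 h and 88.4 ± 5.26 at 14 h (exact permutation p = 0.4). With 3 libraries a time, these p-values do not show that the levels were equal.

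Fold combines the IP fragments at the summit with the local background, and these moved differently at Fbxo5 and Ube2s. At Fbxo5 the summit held 30, 64 and 23 fragments at 34 h, against 36, 53 and 30 at 14 h. Its background was 2.06, 2.46 and 2.11 fragments at 34 h, against 3.66, 3.61 and 3.98 at 14 h. At Ube2s the summit held 26, 41 and 22 fragments at 34 h, against 20, 31 and 30 at 14 h, over a background of 1.42, 1.70 and 1.53 at 34 h, against 2.44, 3.00 and 2.65 at 14 h. The backgrounds of the 2 times did not overlap at either gene, and the fragments did.

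Relative to the median over the 428 regions of the same library, the Fbxo5 background was 0.870 ± 0.0295 at 34 h and 2.40 ± 0.344 at 14 h, and that of Ube2s 0.610 ± 0.0188 and 1.71 ± 0.0366 (SD, n = 3 each). Ranked by fragments in place of fold, a ranking chosen after seeing the data, Fbxo5 differed by −3.01 points and Ube2s by 4.61 points, with exact permutation p of 0.8 and 0.7. At Ube2c the background ratio was 0.969 ± 0.0295 at 34 h and 0.845 ± 0.0499 at 14 h, also without overlap and in the other direction. The 3 libraries of a time were called against a single input, so their backgrounds are not independent measurements, and the part of the input in these differences was not tested.

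**Figure D3:**
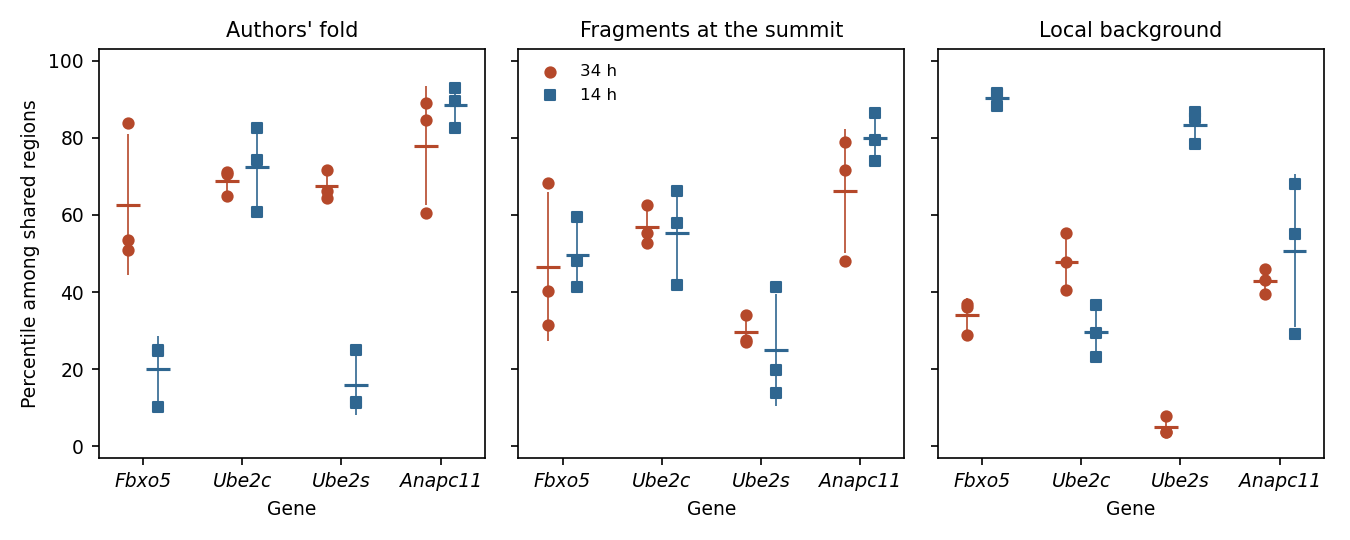
Percentile (0 to 100) among the 428 regions shared by all 6 libraries for the authors' fold, the fragments at the summit and the local background at 4 genes; points are libraries (34 h circles left, 14 h squares right), horizontal bars the mean and vertical lines the SD. Fbxo5 and Ube2s separate by time in fold and in background but overlap in fragments.

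Of 9 further core genes, 1 had a region at 34 h (11.1%, beside 8.79% of all genes) and 0 had one at 14 h (beside 4.27% of all genes), which is near the background at both times. Anapc5, a scaffold-platform subunit, was that gene, with folds of 4.83 and 7.78 in replicates 1 and 2 of 34 h. Anapc7, Anapc10, Anapc13, Anapc15 and Cdc26 had a peak in replicate 2 of 34 h without a region, Anapc15 and Cdc26 had another in 1 library of 14 h each, and Anapc2, Anapc4 and Anapc16 had none. Over all 14 core genes, 3 had a region at 34 h, against 2 at 14 h, and 9 of the 14 had a peak in replicate 2 of 34 h, beside 18.1% of all genes. Without that library Anapc5 and Cdc23 no longer had 2 libraries at 34 h.

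The mitotic checkpoint complex holds Cdc20 in check until chromosomes attach. Of 8 genes of this complex and its regulators, 6 had a region at 34 h, against 7 at 14 h. The shares of all genes were 8.79% and 4.27%. Ttk, Bub1, Trip13 and Mad2l1 had a region of all 6 libraries, with mean folds from 10.5 for Mad2l1 to 32.0 for Ttk at 34 h and from 18.8 to 46.7 for the same 2 genes at 14 h. Bub1b and Mad1l1 had a region at each time and Mad2l1bp at 14 h, and Bub3 had no peak. These lists were chosen with earlier results of the data known, and their counts are read only beside the shares of all genes.

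Of 25 genes whose products are reported APC/C substrates, 22 had a region at 34 h, against 22 at 14 h, and 18 had a region of all 6 libraries. The shares of all genes were 8.79%, 4.27% and 2.26%. The cyclin genes Ccnb1, Ccnb2 and Ccna2 had mean folds of 7.25 ± 0.772, 10.3 ± 3.10 and 8.62 ± 3.48 at 34 h, against 9.04 ± 0.817, 19.1 ± 3.08 and 13.1 ± 2.56 at 14 h (SD, n = 3 each). Others with a region of all 6 libraries were Plk1, Aurkb, Tpx2, Gmnn, Nek2, Cdca5, Kif20a, Kif22, Cks1b, Rrm2, Foxm1, Anln, Top2a, Ska3 and Cdkn3. Cdc6, Cdc25a and Hmmr had a region at each time, Skp2 at 34 h and Tk1 at 14 h. Aurka and the securin gene Pttg1, the substrate whose loss frees separase, had no region at either time, with a peak in 2 libraries for Aurka and in 1 for Pttg1.

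The next lists are again set beside 8.79% of all genes at 34 h and 4.27% at 14 h. Of 10 genes of the SCF ligase, the other main cell cycle ubiquitin ligase, 3 had a region at 34 h (Skp2, counted above as a substrate, Fbxw7 and Ccnf) and 1 at 14 h (Ccnf). Of 21 other E2 genes, 4 had a region at 34 h (Ube2d3, Ube2h, Ube2j1 and Ube2t) and 1 at 14 h (Ube2t, the Fanconi anaemia E2). The share at 14 h, 4.76%, was near that of all genes. Ube2t had a fold of 6.64 ± 1.36 at 34 h, against 12.6 ± 1.22 at 14 h (SD, n = 3 each). Of 6 genes for deubiquitinases and phosphatases that act with the APC/C and the Emi1 relative Fbxo43, 0 had a region at 34 h and 1, Usp37, at 14 h.

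**Figure D4:**
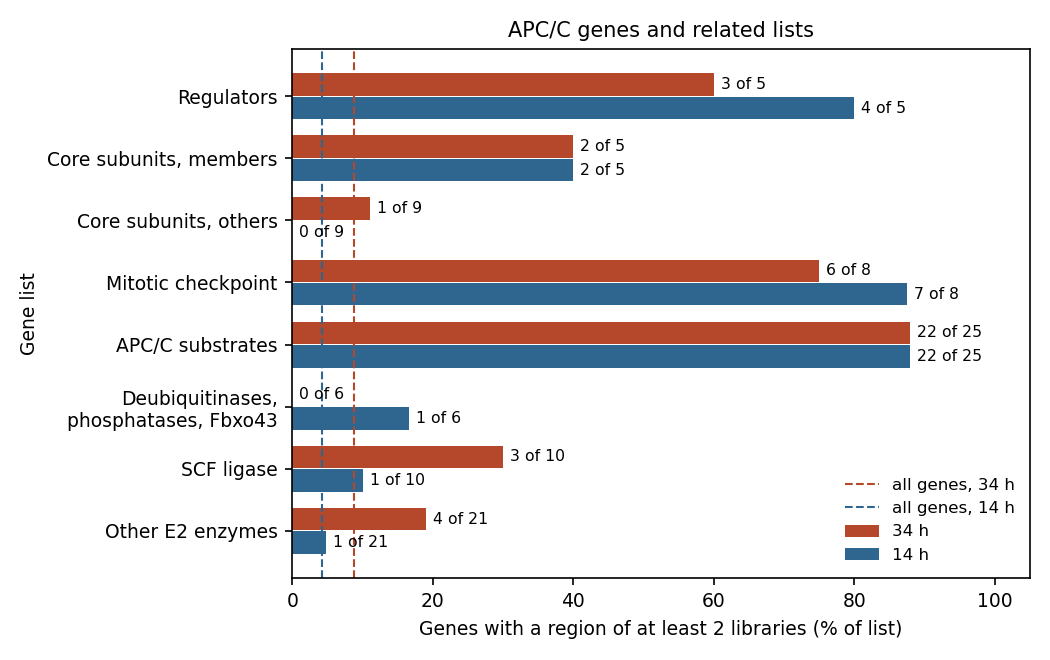
Share of genes in each list (x axis, percent) with a region of at least 2 libraries at 34 h (upper bar) and 14 h (lower bar), with counts beside the bars; dashed lines are the shares of all protein-coding genes, 8.79% at 34 h and 4.27% at 14 h. Substrates reach 22 of 25 at each time and the other core subunits 1 of 9 and 0 of 9.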

How the data were processed

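Subread, MACS2 and the build mm10 are named, without versions or thresholds, per the submitters' processing notes. The deposited lists have the MACS2 narrowPeak layout, and their names pair every IP library with its time's input. The deposited fold is a linear ratio over local background. The deposited p-values and q-values are on a −log10 scale, and a further deposited score is an integer that follows the q-value. Of 12 deposited files, the 6 peak lists were used; the summit lists were not used here.

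Genes came from RefSeq on GRCm38.p6, and starts and promoter sequences from the matching RefSeq table, which held 9 of the 10 members. Peaks were merged on 1 bp overlap. Fragments at each summit and its background were solved from fold and −log10 p, to within 0.001, for 100% of peaks on these chromosomes, and tested on simulated data. Python 3.11.15 and scipy 1.17.1 were used. Named were all 10 members, the 9 other core subunits and, of each further list, genes with a region at either time; listed genes outside this rule were named after their values were seen. Members and lists were chosen with earlier results of these data known. Replicate numbers are shared by the 2 times but were not taken to pair libraries. Intervals are not given, and fragment counts limit the precision of each fold.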

Additional observations from a re-analysis of the deposited data

How the results depend on the processing

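The 3 regulators of 34 h were called under every alternative run for that time, and Cdc20 joined them (4) where any library sufficed. Over those runs the share of all protein-coding genes went from 3.16% (lists of equal length) to 19.1% (any library). At 14 h the count of regulators was 3 or 4, and leaving out a library gave 3 to 4. The share of all genes there went from 2.94% (all 3 libraries) to 6.96% (any library). Core subunits numbered 1 at 34 h where all 3 libraries were required, and 1 to 2 when a library was left out. They rose to 3 at 34 h where any library sufficed (with Cdc27), and to 3 at each time with the 5 kb window (with Cdc16). At 14 h every omission gave 2. Ranked by summit fragments, the percentile difference (34 h minus 14 h) changed sign for Fbxo5 (−3.01) and Ube2c (1.48). Leaving out each library gave 32.0 to 48.6 for Fbxo5, 49.1 to 56.0 for Ube2s, −9.56 to 1.44 for Ube2c and −16.0 to −1.68 for Anapc11. With −log10 p ranked, Fbxo5 differed by 18.3 points (exact permutation p = 0.4) and Ube2s by 30.1 (p = 0.1).

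Same-numbered libraries of the 2 times had correlations of deviations of 0.0455, 0.260 and 0.0825 over 428 regions. Replicates 1 and 2 of 34 h correlated best with their own number, but replicate 3 of 34 h with replicate 1 of 14 h (0.124). These values do not settle whether libraries were paired, and the numbers were not taken to pair them. With the replicate block the differences were 42.6, 51.4, −3.63 and −10.5 points for Fbxo5, Ube2s, Ube2c and Anapc11 (exact sign-flip p = 0.25, 0.25, 0.75 and 0.75, with 0.25 the smallest possible). Each time has a single input, and neither exact test used between times could pass 0.05.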
